A study of Mus musculus with 24 samples.

Results

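A divergent promoter drives a pair of genes that start close to each other and are transcribed in opposite directions. Such pairs were taken from the GENCODE vM21 annotation of the mouse genome (GRCm38, mm10) as protein-coding genes of chromosomes 1 to 19 in which the outermost transcription start site (TSS) of the minus-strand gene lies at most 1000 bp to the left of the outermost TSS of the plus-strand gene. The rule found 734 pairs with 1448 genes, 6.96% of the 20807 protein-coding genes on these chromosomes. Each pair was given a window from 500 bp outside the first TSS to 500 bp outside the second. The 18486 genes with no outermost TSS of an opposite-strand protein-coding gene within 1000 bp on either side served as single promoters, with 500 bp on each side of the TSS. A further 873 genes fell into neither set because their outermost TSS crosses that of a neighbor on the other strand by up to 1000 bp.

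Peaks came from chromatin immunoprecipitation sequencing (ChIP-seq) of 3 transcriptional regulators (TRs) in wildtype mouse cortex of a CD1 background at 2 embryonic stages, E15.5 and E18.5, named by the days of gestation. There were 12 ChIP libraries and 12 libraries of input chromatin, with 2 biological replicates of each kind per TR and stage. ARID1B belongs to the BAF complex, which moves nucleosomes. FOXP1 is a DNA-binding protein of the forkhead family. TCF7L2, which the sample labels call TCF4, binds DNA at targets of Wnt signaling. The study's methods describe peak calls on merged replicates, and there is 1 list per TR and stage, which the records attach to the first replicate. The lists were taken as those of merged replicates. No difference between lists can be set against a spread between replicates, and intervals below cover counting error only. The tissue was whole cortex, in which a peak in few cells and a weak peak in many cells cannot be told apart.

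The lists held 24890 to 71442 peaks, and the relation of their fold enrichments to their p-values gives a depth, in the smaller of ChIP and input, of 57.3 to 80.7 M reads in 5 lists. The list of FOXP1 at E18.5 had less, 26.3 M reads. Fold enrichment, which says how far the read pileup at a summit exceeds the background, had a lowest value that differed between lists, from 2.33 for ARID1B at E15.5 to 3.21 for FOXP1 at E18.5. As a check of the tissue, 4 of 8 genes known for the cortex were in every list (Emx1, Emx2, Neurod2, and Neurod6) and the other 4 were in 4 or 5 lists. Of 8 genes known for liver, heart, pancreas, kidney, lung, skin, or lymphocytes 0 were in any list. Of all promoters, 50.3% were in all 6 lists and 38.8% in none, and 4 of 8 is close to the former share.

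Head-to-head pairs are a common arrangement in mammalian genomes. The region between the TSSs is usually short, rich in CpG, and poor in TATA boxes, and it is shared by both transcription start regions. Many of the best known pairs hold genes of general cell function, such as DNA repair, mitochondrial translation, and RNA synthesis.

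The distance between the TSSs had a median of 128 bp, with quartiles of 66.2 and 240 bp, and ran from 1 to 987 bp. In 306 pairs the TSSs lay 1 to 100 bp apart, in 296 pairs over 100 and up to 300 bp, and in 132 pairs over 300 and up to 1000 bp. Pairs were found on every chromosome, from 10 on chromosome 18 to 68 on chromosome 11. In 40 pairs a gene also belonged to another pair, and these pairs share part of their window.

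The sequences on which the results turn are given here from the reference genome. Capitals mark exact matches, on either strand, to 10 short motifs searched in all windows. The letters known for NFY are CCAAT, those for the ETS family are CCGGAAG, and those for NRF1 are GCGCATGC. For the SP and KLF family the search used GGGCGG, for YY1 it used AAGATGGCG, and for ZNF143 it used CTACAATTC. The CREB motif was TGACGTCA, and the TATA box was read as TATAAA. Forkhead factors such as FOXP1 were searched by the letters TGTTTAC, and the family of TCF and LEF factors by ATCAAAG. Capitals also mark CCGGAA, a core contained in the ETS motif that was added after the values were seen. A match is a description of the letters and not a binding site. The first sequences are from the pairs with the highest ARID1B and TCF7L2 fold enrichment, shown where they lie between the TSSs and within 100 bp of the strongest summit.

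Rad17-Taf9, plus strand, chr13:100651052-100651252: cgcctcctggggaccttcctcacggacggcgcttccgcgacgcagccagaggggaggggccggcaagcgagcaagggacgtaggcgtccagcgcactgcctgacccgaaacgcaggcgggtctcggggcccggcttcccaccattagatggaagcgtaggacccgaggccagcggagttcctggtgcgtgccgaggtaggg
Dzank1-Polr3f, plus strand, chr2:144527544-144527717: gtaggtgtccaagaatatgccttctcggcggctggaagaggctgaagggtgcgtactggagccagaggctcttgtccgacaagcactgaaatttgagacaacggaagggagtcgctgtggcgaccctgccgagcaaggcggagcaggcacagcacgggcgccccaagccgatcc
Hspa1a-Hspa1l, plus strand, chr17:34972499-34972699: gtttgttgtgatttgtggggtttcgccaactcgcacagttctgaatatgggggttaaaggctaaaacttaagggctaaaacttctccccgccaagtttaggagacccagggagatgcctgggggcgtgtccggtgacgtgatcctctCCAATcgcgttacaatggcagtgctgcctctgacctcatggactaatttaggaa

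The whole interval between the TSSs is given for 2 pairs known from textbooks, for an additional pair with high TCF7L2 enrichment, for the 2 pairs highest for FOXP1 at E18.5, and for a pair that holds a gene associated with autism spectrum disorder (ASD). The interval of Mrps12 and Sars2 held 4 matches to CCAAT.

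Brca1-Nbr1, plus strand, chr11:101551956-101552148: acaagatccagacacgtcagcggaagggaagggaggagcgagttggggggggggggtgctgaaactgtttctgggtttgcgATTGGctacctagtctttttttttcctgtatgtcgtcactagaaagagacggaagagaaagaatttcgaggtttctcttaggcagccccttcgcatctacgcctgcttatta
Mrps12-Sars2, plus strand, chr7:28741821-28741991: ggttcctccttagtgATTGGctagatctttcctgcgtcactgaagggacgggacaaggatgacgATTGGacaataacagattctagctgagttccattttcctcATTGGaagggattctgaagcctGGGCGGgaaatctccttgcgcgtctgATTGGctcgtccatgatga
Rita1-Ddx54, plus strand, chr5:120612590-120612738: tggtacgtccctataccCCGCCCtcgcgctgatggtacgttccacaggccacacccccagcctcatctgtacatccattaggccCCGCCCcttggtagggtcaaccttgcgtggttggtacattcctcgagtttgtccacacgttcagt
Hjurp-Trpm8, plus strand, chr1:88277634-88277660: ggggagggacgagagggagggtccgcc
Rmnd1-Armt1, plus strand, chr10:4432389-4432466: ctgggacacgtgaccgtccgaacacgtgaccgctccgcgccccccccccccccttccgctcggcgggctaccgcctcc
Deaf1-Tmem80, plus strand, chr7:141327691-141327738: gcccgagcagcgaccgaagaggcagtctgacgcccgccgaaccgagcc

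The next intervals belong to the 4 pairs with the highest FOXP1 fold enrichment at E15.5. The interval of Tatdn3 and Nsl1 and that of Zfp408 and Arhgap1 held the ETS core.

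Tatdn3-Nsl1, plus strand, chr1:191062933-191063011: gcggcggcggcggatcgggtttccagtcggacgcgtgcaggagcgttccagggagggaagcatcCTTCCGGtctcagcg
Zfp408-Arhgap1, plus strand, chr2:91649792-91649859: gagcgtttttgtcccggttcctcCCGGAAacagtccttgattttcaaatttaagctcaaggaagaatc
Ecd-Fam149b, plus strand, chr14:20348122-20348161: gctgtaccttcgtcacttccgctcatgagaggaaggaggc
Fam126b-Ndufb3, plus strand, chr1:58586324-58586383: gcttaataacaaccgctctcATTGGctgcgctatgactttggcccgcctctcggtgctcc

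The last intervals belong to pairs without a peak in any list. The interval of Zfp944 and Zfp758 is 52 bp long, and all 52 bases recur as 1 run in the interval of Zfp942 and Zfp943.

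Zfp942-Zfp943, plus strand, chr17:21962465-21962551: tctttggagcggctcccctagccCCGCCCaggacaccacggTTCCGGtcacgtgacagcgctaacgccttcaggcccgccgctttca
Zfp944-Zfp758, plus strand, chr17:22361401-22361452: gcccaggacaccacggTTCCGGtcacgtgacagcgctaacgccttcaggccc
Bhmt2-Dmgdh, plus strand, chr13:93674303-93674432: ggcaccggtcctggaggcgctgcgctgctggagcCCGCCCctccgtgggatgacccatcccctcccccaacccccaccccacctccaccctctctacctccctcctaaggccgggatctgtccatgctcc
Col4a4-Col4a3, plus strand, chr1:82586850-82586920: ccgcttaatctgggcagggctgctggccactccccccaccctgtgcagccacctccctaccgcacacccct

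Most divergent promoters had a peak of every TR at both stages. ARID1B had a peak at E15.5 in 688 of 734 divergent windows, 93.7% (95% Wilson interval 91.7% to 95.3%), where 56.5% of all protein-coding promoters had one. FOXP1 had one in 698 windows, 95.1%, against 59.0% of all promoters, and TCF7L2 in 691 windows, 94.1%, against 55.4%. At E18.5, the shares were 92.9% for ARID1B (all promoters, 55.4%), 93.5% for FOXP1 (52.5%), and 95.4% for TCF7L2 (58.9%). Single promoters had a peak in 47.5% to 54.5%. The divergent windows exceeded them by 40.6 to 45.9 percentage points, and the lowest bound of the 6 intervals (Newcombe's 95% method) was 38.7 points.

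The peaks of the 3 TRs were at the same pairs. All 3 TRs had a peak in 93.2% of divergent windows at E15.5 (all promoters, 53.7%) and in 92.2% at E18.5 (51.1%). All 6 lists had one in 671 windows, 91.4% (89.2% to 93.2%), where 50.3% of all promoters and 45.3% of single promoters were in all 6. No list had a peak in 33 windows, 4.50%, against 38.8% of all promoters. Only 30 pairs had a peak in 1 to 5 lists. The lists that were missing in those 30 pairs were most often ARID1B at E18.5 (19 pairs), FOXP1 at E18.5 (15 pairs), and ARID1B at E15.5 (13 pairs), and least often TCF7L2 at E18.5 (1 pair).

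The share with all 6 lists was 94.1% (90.9% to 96.2%) where the TSSs lay 1 to 100 bp apart, 91.2% (87.4% to 93.9%) from there to 300 bp, and 85.6% (78.6% to 90.6%) above 300 bp. The intervals of neighboring distance classes overlap, and those of the narrowest and the widest class do not. The widest class also had the lowest median CpG content, 0.729 against 0.781 and 0.794 as the ratio of observed to expected CpG within 500 bp of the midpoint.

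Among single promoters, 754 had a gene of a non-coding type that starts on the other strand within 1000 bp upstream, so that transcription there can also run both ways. Of these, 78.0% (74.9% to 80.8%) had a peak in all 6 lists, compared to 43.9% of the 17732 single promoters without such a gene. The divergent coding pairs stood 13.4 points above the former (9.83 to 17.0) and 47.5 points above the latter (45.1 to 49.5). Where the CpG ratio, described next, was 0.6 or more, 96.2% of the divergent pairs and 93.1% of the single promoters with a non-coding gene opposite were in all 6 lists, and the difference was 3.09 points (0.544 to 5.75). From 0.3 to 0.6, the shares were 75.3% and 47.5% and differed by 27.8 points (13.8 to 40.2). Below 0.3, they were 14.3% and 2.63% and differed by 11.7 points (0.324 to 32.1).

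**Figure D1:**
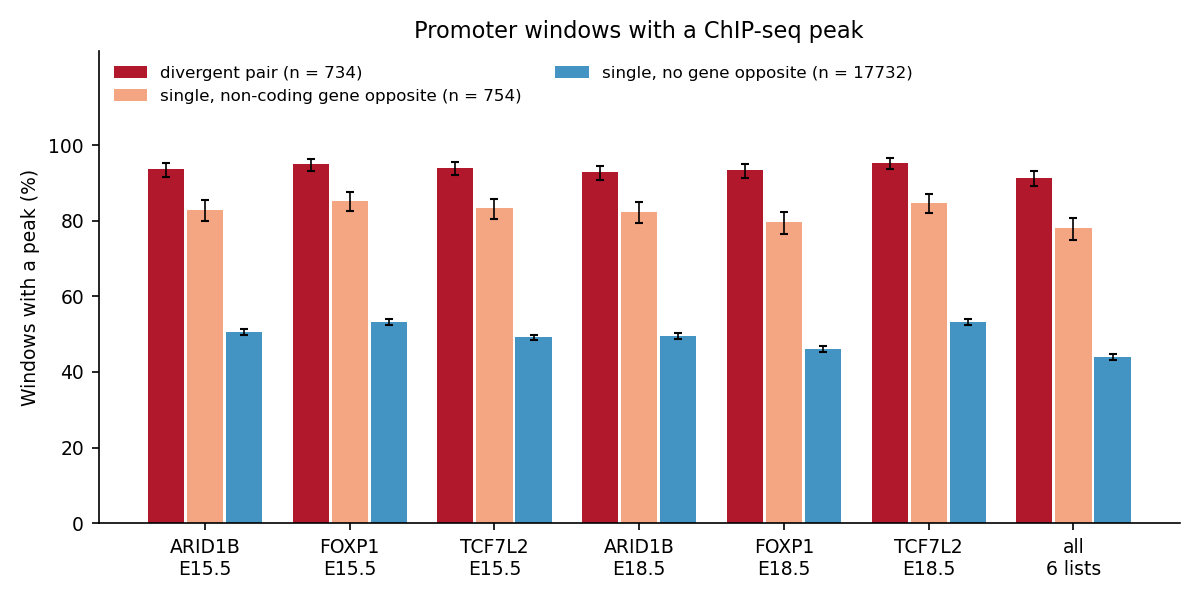
Bars give the percent of promoter windows with a peak in each of the 6 lists and in all 6 lists together, for divergent pairs, single promoters with a non-coding gene on the other strand, and single promoters with no gene opposite. Lines are 95% Wilson intervals. Divergent pairs stand at 91.4% to 95.4% in every group of bars, and single promoters with no gene opposite at 43.9% to 53.1%.

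CpG content differed between the sets. The median ratio of observed to expected CpG was 0.777 in divergent windows and 0.501 in single promoters, with 0.765 in single promoters with a non-coding gene opposite. A ratio of 0.6 or more was found in 85.6% of divergent and 42.6% of single promoters. Within that CpG-rich class, 96.2% of 628 divergent windows (94.4% to 97.4%) and 87.0% of 7876 single promoters (86.3% to 87.8%) had a peak in all 6 lists, a difference of 9.13 points (7.19 to 10.6), compared to 46.1 points without the division. From 0.3 to 0.6, the shares were 75.3% of 85 (65.2% to 83.2%) and 36.2% of 3952. Below 0.3, they were 14.3% of 21 (4.98% to 34.6%) and 1.32% of 6658. In each class the divergent share was the higher one and the intervals did not overlap, and the difference in the CpG-rich class was much smaller than over all promoters.

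**Figure D2:**
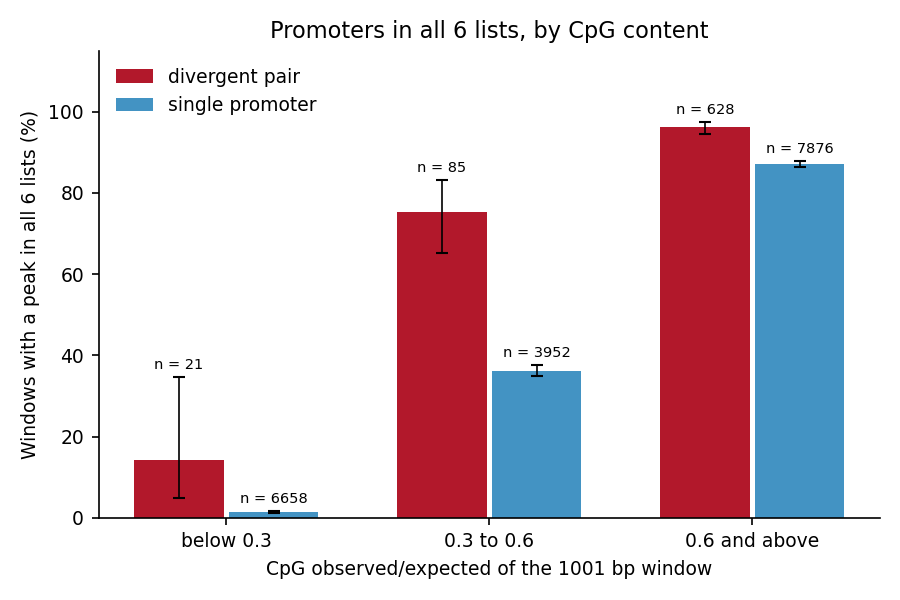
Bars give the percent of windows with a peak in all 6 lists for divergent pairs and single promoters in 3 classes of CpG observed/expected, with 95% Wilson intervals and the number of windows above each bar. The shares rise with CpG content in both sets, to 96.2% and 87.0% in the CpG-rich class.

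Peaks at divergent pairs were also higher and wider than at all single promoters. The median fold enrichment of the strongest peak per window was 5.70 at divergent and 4.99 at single promoters for ARID1B at E15.5. The medians were 13.3 and 10.1 for FOXP1 and 7.13 and 6.19 for TCF7L2 at that stage. At E18.5, they were 6.31 and 5.47 for ARID1B, 10.1 and 8.36 for FOXP1, and 7.44 and 6.35 for TCF7L2. The quartiles overlapped in every list, for ARID1B at E15.5 from 4.90 to 6.86 in divergent windows and from 4.10 to 6.06 at single promoters. In the CpG-rich class the order was the same, with medians of 13.5 and 11.1 for FOXP1 at E15.5, the list with the widest gap, and 5.88 and 5.26 for ARID1B at E15.5. The highest promoter peak was at a single promoter in all 6 lists. Single promoters with a non-coding gene opposite were closer to the divergent pairs, with medians of 7.02 and 7.22 for TCF7L2 at the earlier and later stage, 12 and 9.24 for FOXP1, and 5.35 and 5.75 for ARID1B. The median width of the peak was 894 to 1329 bp at divergent pairs and 773 to 1202 bp at single promoters, and 832 to 1333 bp at those with a non-coding gene opposite.

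A single peak usually lay over both genes' starts. Of the windows with a peak, 1 ARID1B peak covered both TSSs in 90.1% and 89.0% of them at the earlier and the later stage. The shares were 95.8% and 92.7% for FOXP1 and 92.9% and 94.6% for TCF7L2. Where the TSSs lay over 300 bp apart, the share fell to between 65.3% for ARID1B at E18.5 and 80.5% for FOXP1 at E15.5. The peaks reached a median of 356 to 573 bp past the minus-strand TSS and 370 to 572 bp past the plus-strand TSS, to about the same length on both sides in each list.

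The summits were centered on the pair. The median offset of the summit from the midpoint of the TSSs was between -10 and -1.0 bp in the 6 lists, with the minus-strand gene on the negative side. In 27.6% to 37.8% of windows with a peak, the summit lay between the TSSs, an interval that makes up 14.1% to 14.3% of these windows. The share was the smallest for ARID1B at E15.5 (24.4% to 31.1%) and the largest for FOXP1 at E18.5 (34.2% to 41.4%). ARID1B summits were the most spread, with a median distance of 123 bp from the midpoint at E18.5, compared to 88.5 bp for FOXP1 and 98.2 bp for TCF7L2.

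Seen from each gene, the median summit at a divergent pair was upstream, which follows in part from the layout. The median summit was 74 to 83 bp upstream of a TSS (-74 to -83 bp), and 63.6% to 68.7% of the positions were upstream. At single promoters it lay downstream, at a median of 26.0 to 60 bp into the gene, and 35.9% to 43.3% were upstream. Single promoters with a non-coding gene opposite were intermediate, with a median position between -24.0 and -2.00 bp. By construction, a summit between the TSSs is upstream of both genes, and a summit outside them is upstream of the farther gene. Each summit was counted from both TSSs, and its positions always add up to minus the distance between the TSSs. The upstream share therefore cannot fall as low as at single promoters, and the sets are not compared on equal terms.

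**Figure D3:**
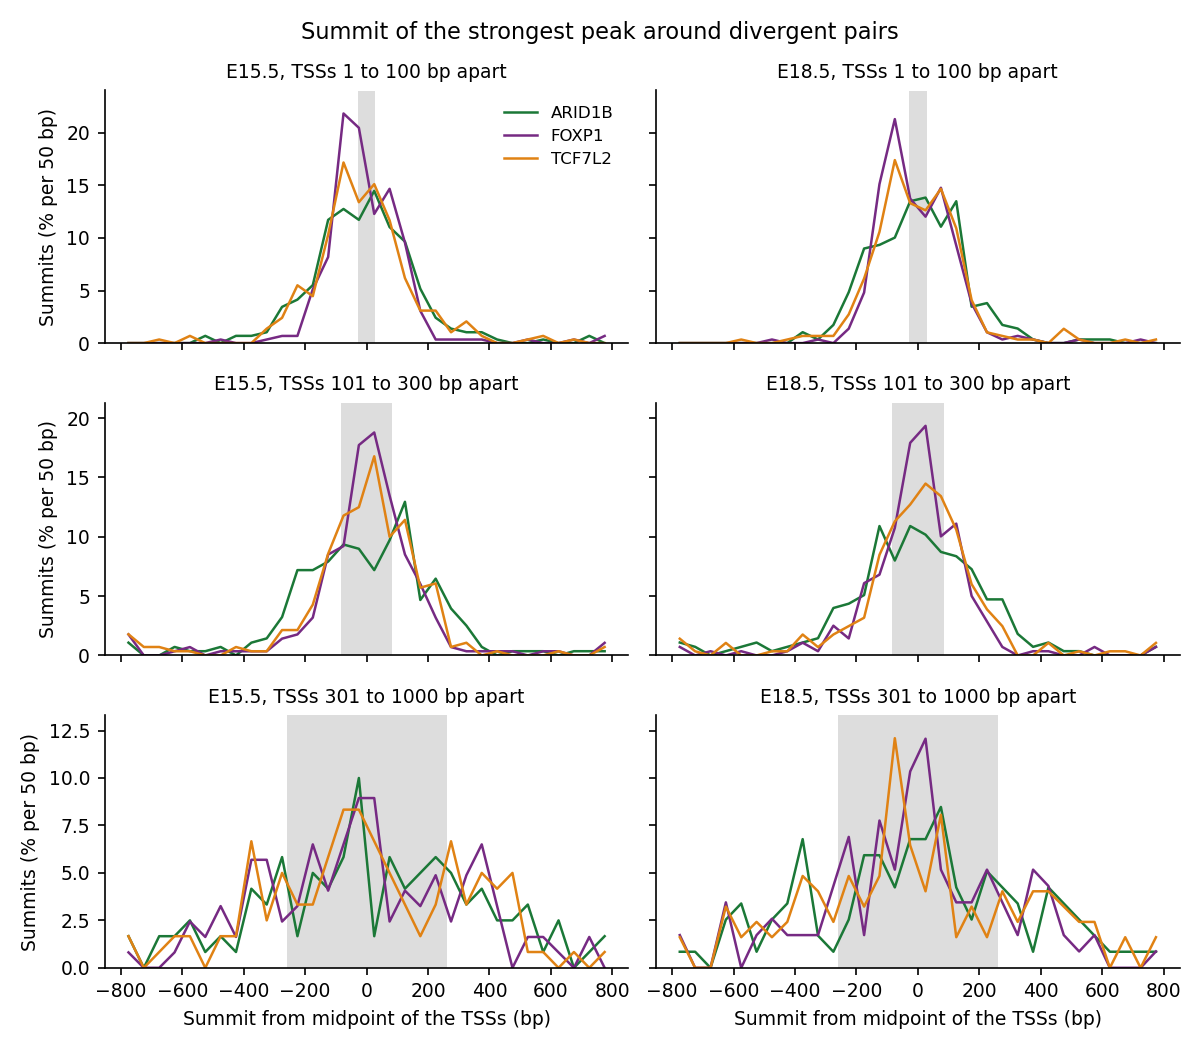
Lines give the percent of divergent windows whose strongest peak has its summit in each 50 bp step from the midpoint of the TSSs, for the 3 TRs at both stages and for 3 classes of TSS distance, with the farthest summits placed at the edge. Grey bands span the median distance between the TSSs, and the minus-strand gene lies to the left. Summits gather around the midpoint up to 300 bp and are spread over the whole interval in the widest class, where 49.2% to 64.7% lie between the TSSs.

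Few divergent pairs had a peak of a TR in the list of only 1 stage. ARID1B had a peak at 1 stage only in 14 of the 692 pairs with a peak at either stage, 2.02%, compared to 6.68% of single promoters. FOXP1 had one at 1 stage only in 1.72% of pairs and 13.0% of single promoters, and TCF7L2 in 1.57% and 8.03%. For FOXP1, these were 12 pairs at E15.5 only and 0 pairs at E18.5 only, in the list with the lowest depth. For TCF7L2, it was 1 pair at E15.5 only and 10 at E18.5 only. No pair had all 3 TRs at one stage and none at the other. When only peaks with a −log10 p of 15 or more were kept, the shares rose to 13.0% for ARID1B, 5.99% for FOXP1, and 6.05% for TCF7L2. The part of depth in these counts was not tested.

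Over the 671 pairs with all 6 lists, Spearman's rank correlation of fold enrichment between stages was 0.82 for ARID1B, 0.71 for FOXP1, and 0.87 for TCF7L2. Between TRs of the same stage it was 0.53 to 0.63. At single promoters the values were 0.82, 0.85, and 0.90 between stages and 0.61 to 0.73 between TRs. These values describe promoters within lists that share tissue and CpG content, and promoters are not independent replicates. The summits of a TR at the 2 stages were a median of 67 bp (ARID1B), 50 bp (FOXP1), and 59 bp (TCF7L2) apart.

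At divergent pairs, FOXP1 had the lowest of the 3 correlations between stages, which was not so at single promoters, and its list at E15.5 had a tail of high values. In 33 of the 698 pairs with a peak, 4.73% (3.39% to 6.57%), FOXP1 at E15.5 reached a fold enrichment of 25 or more, a limit chosen after the values were seen. The pairs next to the limit were Sec24a-Sar1b at 25.1 and Rer1-Morn1 at 24.7. Single promoters reached it in 228 of 10067, 2.26% (1.99% to 2.57%). The values run through the limit without a gap. The list held 1516 peaks from 15 to 20, 163 from 20 to 25, 100 from 25 to 30, 151 from 30 to 40, and 61 above. Among divergent windows the counts were 151, 18, 9, 20, and 4.

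At E18.5 the same 33 pairs had FOXP1 peaks close to those of other pairs. The median fell from 33.2 to 11.6 between the lists of E15.5 and E18.5, and from 13.0 to 10.1 in the other 665 pairs with a peak at E15.5. The median of the ratio of E15.5 to E18.5 was 3.10 in the 33 pairs and 1.28 in the others, a difference that the choice of pairs by their value at E15.5 partly fixed. No divergent pair reached 25 in the FOXP1 list of E18.5. For the other TRs, the medians at these pairs and at the others were 6.59 against 5.70 for ARID1B and 7.34 against 7.02 for TCF7L2 at E15.5. All 33 pairs had a peak in all 6 lists, as did 671 of the 698 pairs with a FOXP1 peak at E15.5. The choice of the 33 had fixed that FOXP1 peak. Because each stage is 1 merged list, a change between stages and a property of 1 library cannot be told apart.

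The highest of these pairs was Tatdn3-Nsl1, with FOXP1 at 44.8 and 12.9 at E15.5 and E18.5. Nsl1 encodes a kinetochore protein. Zfp408-Arhgap1 followed at 43.9 and 13.7, Ecd-Fam149b at 43.3 and 12.6, and Fam126b-Ndufb3 at 41.5 and 12.8. Ndufb3 is a subunit of respiratory complex I. The pair Nr1h3-Acp2, which holds the gene of the liver X receptor alpha, had 39.7 and 12.2. Also among the 33 were 4 of the 18 pairs with a gene of the mitochondrial ribosome (Mrpl30, Mrps18c, Mrps34, and Mrps27) and 2 of the 7 with a proteasome gene (Psmb1 and Psmc2). The limit was reached in 4.73% of all pairs with a peak. Among pairs with a peak, it was reached by 1 of 12 complex I pairs, 1 of 4 import pairs, 1 of 15 Zfp pairs, and 0 of the 41 replication and repair, 11 histone, 9 cytosolic ribosome, 9 RNA polymerase, and 5 synthetase pairs. These counts describe a set chosen by value.

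The sequence under these summits differed from that at the other pairs. Within 100 bp of the FOXP1 summit at E15.5, the ETS motif CCGGAAG was found in 17 of 33 windows, 51.5% (35.2% to 67.5%), and in 22.7% (19.7% to 26.0%) of the other 665. The core CCGGAA was found in 75.8% (59.0% to 87.2%) and 32.5% (29.0% to 36.1%). CGGAAC, which overlaps the core and was also added after the values were seen, was found in 63.6% (46.6% to 77.8%) and 13.7% (11.3% to 16.5%), and at single promoters in 57.5% and 10.6%. The single promoters above the limit had CCGGAAG in 50.4% of 228 and those below in 12.6% of 9839, and the core in 70.2% and 19.9%. GGGCGG was less common above the limit than below it, 33.3% (19.8% to 50.4%) against 56.7% (52.9% to 60.4%). The forkhead motif TGTTTAC was found in 1 of the 33 windows, 3.03% (0.537% to 15.3%), and in 0.752% (0.322% to 1.75%) of the others. At single promoters the shares were 2.63% and 1.16%. These shares were looked up after the set had been seen and are descriptions.

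**Figure D4:**
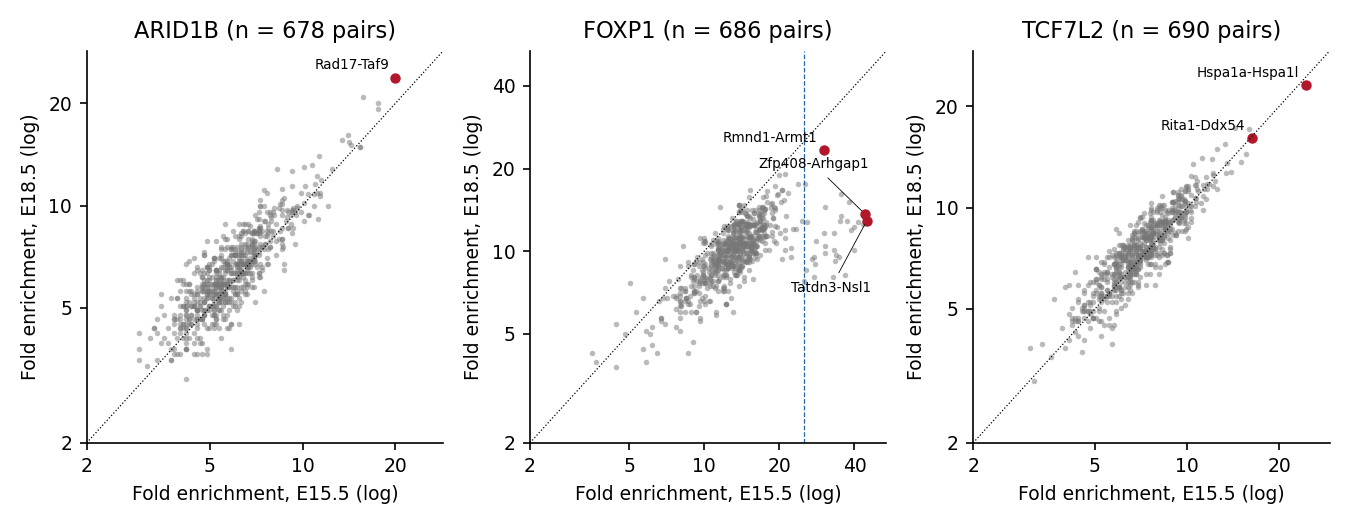
Each point is a divergent pair with a peak of the TR at both stages, with fold enrichment at E15.5 against E18.5 on log axes. Dotted lines mark equal values, and the dashed line marks a fold enrichment of 25. ARID1B and TCF7L2 follow the line of equal values, and in FOXP1 33 pairs lie at or beyond the dashed line, next to 18 pairs from 20 to 25, with Tatdn3-Nsl1 at 44.8 and 12.9.

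Among the highest pairs for ARID1B, Rad17-Taf9 reached 20 and then 23.8 at the later stage. Rad17 encodes a loader of the checkpoint clamp and Taf9 a subunit of the TFIID complex. FOXP1 reached 19.2 and 14.4 there, and TCF7L2 12.2 and 12.7. The 6 summits lay within 61 bp, from 99 to 160 bp from the Rad17 TSS in the 528 bp interval. Dzank1-Polr3f, with the gene of an RNA polymerase III subunit, had ARID1B values of 17.6 and 19.2, and its 6 summits lay within 62 bp, all between the TSSs. Nhlrc3-Proser1 had ARID1B values of 15.7 and 20.9.

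For TCF7L2, the highest pair was Hspa1a-Hspa1l, a pair of HSP70 chaperone genes, with values of 24.4 and 23.1. ARID1B was near its median there, at 6.06 and 5.75. FOXP1 was low at E15.5, at 3.67, and had no peak at E18.5. In this window, 31.8% of all stretches of 50 bases, the length of the reads, occur elsewhere on chromosomes 1 to 19, X, and Y. Rita1-Ddx54 had TCF7L2 values of 16.3 and 16.1. Hjurp-Trpm8, which joins the gene of a centromere chaperone to that of a cold-sensing channel, had TCF7L2 values of 14.3 and 17.2 and FOXP1 values of 21 and 19.1. Rmnd1-Armt1 was the highest pair for FOXP1 at E18.5, at 23.4, after 30.1 at E15.5.

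Among head-to-head pairs known from textbooks, the rule took 4, and all 4 were in all 6 lists, where 91.4% of all pairs were. Atm-Npat, with a kinase of the DNA damage response, had ARID1B at 6.24 and 6.31, FOXP1 at 13.8 and 14.7, and TCF7L2 at 7.75 and 8.43 at E15.5 and E18.5. Brca1-Nbr1 had FOXP1 at 13.2 and 12.2, and Mcm4-Prkdc had TCF7L2 at 9.95 and 10.1. Mrps12-Sars2, which joins genes of a mitochondrial ribosomal protein and the mitochondrial seryl-tRNA synthetase, had ARID1B below its median at 3.75 and 5.33. In 6 others, such as Hspd1-Hspe1 and Ppat-Paics, the plus-strand TSS lies at -271 to -21 bp from the minus-strand TSS, so that they cross and are outside the rule. These 6 were in all 6 lists, where 91.4% of the pairs within the rule were. The TSSs of Acat2 and Tcp1 cross over a far longer stretch in this annotation, and no window was formed.

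Genes of DNA replication and repair, RNA polymerases, complex I, and the mitochondrial ribosome were often in pairs. Of 128 replication and repair genes, from a list made by hand, 39 (30.5%) were in divergent pairs, where 6.96% of all protein-coding genes were. The counts were 9 of 29 RNA polymerase genes, 12 of 44 complex I genes, 18 of 78 mitochondrial ribosome genes, 4 of 25 genes of mitochondrial import and chaperonin, 5 of 38 aminoacyl-tRNA synthetase genes, 7 of 49 proteasome genes, and 10 of 96 cytosolic ribosome genes. The intervals of the import, synthetase, and cytosolic ribosome shares hold 6.96%. All 41 replication and repair pairs, 9 RNA polymerase pairs, 12 complex I pairs, 18 mitochondrial ribosome pairs, 4 import pairs, 5 synthetase pairs, and 7 proteasome pairs were in all 6 lists, where 91.4% of all pairs were. Single promoters of the same groups were in all 6 lists in 93.6% of 78 (replication and repair), 100% of 17 (RNA polymerases), 96.0% of 25 (complex I), and 93.3% of 45 (mitochondrial ribosome). They were in 96.4% of 28 (synthetases), 87.5% of 16 (import), 82.3% of 79 (cytosolic ribosome), and 76.3% of 38 (proteasome). In the cytosolic ribosome, 9 of 10 pairs were in all 6 lists and Rnf151-Rps2 in none. The window of that pair had a CpG ratio of 0.162, and the nearest peak lay 900 bp away. Of 385 Zfp zinc finger genes, 20 were in pairs, 5.19% (3.39% to 7.89%), and of their 18 pairs 15 were in all 6 lists and 3 in none. Olfactory and vomeronasal receptor genes were nearly absent, with 1 of 1470 in a pair.

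Of the ASD-associated genes on the study's list, 3 were in pairs, 2.94% with an interval (1.01% to 8.29%) that holds the 6.96% of all genes. They formed 4 pairs, all in all 6 lists, where 91.4% of all pairs were. Single promoters of the list were in all 6 in 77.7% of 94. Hdlbp, which encodes an RNA-binding protein, faces Sept2, which is annotated as 2 genes of the same symbol and so forms 2 pairs. Its peaks had FOXP1 at 16.1 and 9.83 and TCF7L2 at 9.01 and 10.4. Trappc13-Trim23 had FOXP1 at 15.1 and 13.4, and Deaf1-Tmem80, with a transcription factor gene, at 14.4 and 12.5.

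The divergent windows held ETS, YY1, and SP/KLF motifs more often than single promoters and TATA boxes less often. CCGGAAG was in 42.1% of divergent and 16.8% of single promoters within 500 bp of the midpoint or the TSS (all promoters, 19.5%), a difference of 25.3 points (21.7 to 28.9). AAGATGGCG was in 9.81% and 3.03% (all promoters, 3.60%). In the CpG-rich class both differences were smaller, at 17.0 points (13.0 to 21.0) and 4.53 points (2.30 to 7.22). GGGCGG was in 89.8% and 58.2% (all promoters, 61.4%), but in 92.7% and 92.4% within the CpG-rich class, where the interval of the difference ran from -2.12 to 2.14 points. TATAAA was in 14.3% and 34.1% (all promoters, 32.2%), and the difference was -5.70 points (-8.31 to -2.68) in the CpG-rich class. Within 150 bp in that class, the shares were 3.98% and 4.32%, and the interval of the difference ran from -1.69 to 1.54 points.

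Other motifs differed less when 500 bp on each side were read. GCGCATGC was in 9.67% and 4.90% (all promoters, 5.31%) and TGACGTCA in 6.13% and 3.05% (3.33%). In the CpG-rich class the difference for GCGCATGC was 1.86 points, with an interval (-0.393 to 4.57) that includes 0, and that for TGACGTCA was 2.07 points (0.251 to 4.38). CTACAATTC was in 1.5% and 0.849% (0.923%), with an interval of the difference from -0.0257 to 1.82 points. In the CpG-rich class it was in 11 of 628 and 63 of 7876, a difference of 0.952 points (0.150 to 2.32). CCAAT was in 68.9% and 70.6% (70.3%), but in 44.6% and 36% when only 150 bp on each side were read (36.2%). The latter difference was 8.55 points (4.92 to 12.2). In the CpG-rich class, the CCAAT difference was 4.50 points (0.602 to 8.19) and, within 150 bp, 11.1 points (7.09 to 15.1). The motifs of the TRs themselves were rarer at divergent pairs, with TGTTTAC in 5.99% and 9.72% (9.41%) and ATCAAAG in 8.17% and 11.7% (11.3%). Within the CpG-rich class, the intervals of both differences included 0. Pairs with CCGGAAG within 150 bp of the midpoint had about the same fold enrichment as those without, for example 13.3 and 13.2 for FOXP1 and 5.79 and 5.70 for ARID1B at E15.5.

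The 33 pairs without any peak had a median CpG ratio of 0.301, compared to 0.785 in the pairs with all 6 lists. Of the 33, 16 had a ratio below 0.3 and 5 had 0.6 or more, and the nearest peak of any list was at a median of 10235 bp from the window. The pairs included genes known from other cell types, such as Col4a4-Col4a3 (collagens of the kidney basement membrane), Pecam1-Milr1 (Pecam1, an endothelial gene), Smyd1-Cd8b1 (Smyd1, a muscle gene), and Bhmt2-Dmgdh (enzymes of methionine and choline metabolism). These 4 were chosen from the list after it was seen, except Bhmt2-Dmgdh, which the naming rule took with the other CpG-richest pairs, Lypd4-Dmrtc2 and Aspa-Gm49340. Others hold a gene used by most cells, such as Dgcr2-Tssk2 and Slc27a5-Trim28. Their windows had CpG ratios of 0.369 and 0.155. The windows follow the outermost TSS, and other starts of these genes were not examined.

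All 5 CpG-rich pairs without a peak belong to families of similar genes. They were Hist1h2bq-Hist1h2ao, Hist1h2ap-Hist1h2br, Hist1h2ba-Hist1h2aa, Zfp942-Zfp943, and Zfp944-Zfp758. The authors filtered reads on mapping quality, and its part in these gaps was not tested. The share of 50-base stretches of a window that occur elsewhere was 100% in the first and the second of these pairs, 11.0% in the third, 34.6% in the fourth, and 34.7% in the fifth. Over all 734 pairs, 624 had no such stretch and 29 had 10% or more.

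Clustered histone genes, taken by their symbols, were the group with the most gaps. Of the 67 genes, 27 were in pairs, 40.3% (29.4% to 52.3%) against 6.96% of all genes. Of the 14 pairs, 2 were in all 6 lists, 9 in some, and 3 in none, where 91.4% of all pairs were in all 6. Of the 40 single promoters of histone genes, 24 were in all 6 lists. The repeated share was 7.49% and 15.3% in the pairs with all 6 lists, 14.2% to 55.3% in those with some, and 11.0% to 100% in those with none. Among the 9, ARID1B was missing in 4 at E15.5 and in 6 at E18.5, FOXP1 in 0 and 1, and TCF7L2 in none. The part of repeated sequence in these gaps was not tested. Hist1h2ac-Hist1h2bc had FOXP1 at 11.9 and 7.18 and TCF7L2 at 6.92 and 7.22, whereas ARID1B was 4.01 at E15.5 and had no peak at E18.5. Hist1h2ag-Hist1h2bj had ARID1B at E18.5 only, at 3.23, next to FOXP1 at 12.7 and 7.62.

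Among the 705 pairs with less than 10% of repeated stretches, 94.0% were in all 6 lists and 3.4% in none. In pairs other than histones, repeated sequence was seen both with and without missing lists. Scnm1-Lysmd1 had 47.0% and all 6 lists, Mfsd8-Abhd18 had 41.7% and 5 lists, and Gml-Gml2 had 43.2% and no list. Of the 29 pairs with 10% or more, 8 were in all 6 lists, 12 in some, and 9 in none. Of the 33 pairs without a peak, 16 had no repeated stretch. Repeated sequence among single promoters was not counted.

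**Figure D5:**
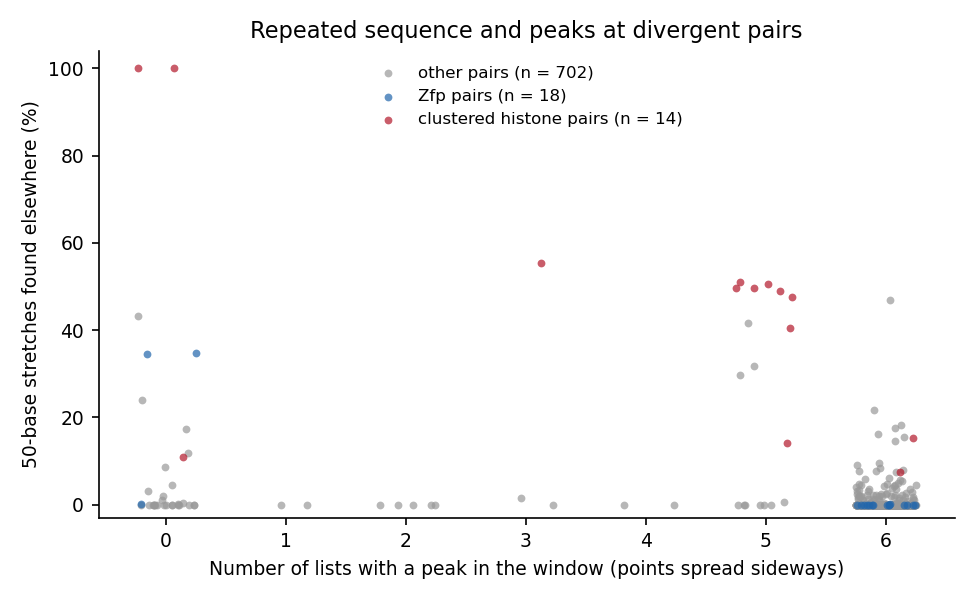
Each point is a divergent pair, with the number of lists that have a peak in its window on the horizontal axis and the percent of its 50-base stretches that occur elsewhere on chromosomes 1 to 19, X, and Y on the vertical axis. Colors mark clustered histone and Zfp pairs. Most pairs lie at 0% and 6 lists, and the histone pairs with gaps lie between 11.0% and 100%.

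Of the pairs with peaks in some lists, Hspa1a-Hspa1l had TCF7L2 at 24.4 at E15.5, and the histone pairs had FOXP1 at up to 12.7 there. Only 1 pair had a single TR at both stages, Cenpj-Parp4, with TCF7L2 at 3.16 and 3.06 and no peak of ARID1B or FOXP1. Plgrkt-Cd274, with the gene of PD-L1, had FOXP1 at 3.67 at E15.5 and TCF7L2 at 2.74 at E18.5. The median of all peaks was 4.05 in the FOXP1 list of E15.5, 4.31 in the TCF7L2 list of that stage, and 3.5 in the TCF7L2 list of E18.5. A missing peak says only that none was detectable at this depth.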

How the data were processed

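The data were ChIP-seq libraries of single-end reads of 50 bases, grouped by TR and stage per the labels. Per the submitters' processing notes and the study's methods, the authors aligned reads to mm10 with BWA 0.7.15 (mem), filtered them on mapping quality with SAMtools, merged replicates, and called narrow peaks against input with MACS2 2.2.7 without a model, at a constant background and an extension of 200 bp. How duplicates were treated was not stated in the sources. The deposited lists hold, per peak, the fold enrichment as a ratio to background, −log10 p- and q-values, the summit, and a score that was not used. Reads per smaller library were derived from the relation of fold enrichment to −log10 p. The authors' lists were used as deposited.

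TSSs came from GENCODE vM21 and sequence from GRCm38. A window had a peak if it shared at least 1 base with one, and the strongest peak gave its height and summit. Shares have 95% Wilson and differences 95% Newcombe intervals, which cover counting error only. Neighboring promoters are not independent, and no tests were run. Named pairs were the textbook pairs (1 is not reported here), the 2 highest per list, those with ASD genes, the 8 CpG-richest without a peak, and those of a single TR at both stages or of 1 stage only. Other pairs named were chosen after their values were seen. Members and lists were chosen with earlier results of these data known. Code was checked on simulated data (Python 3.11.15, numpy 2.4.6, pandas 2.3.3, scipy 1.17.1, pysam 0.24.0). Alternatives varied the peak threshold, overlap, window, TSS choice, distance, comparison set, and CpG class.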

Additional observations from a re-analysis of the deposited data

How the results depend on the processing

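No paired analysis was possible because replicates were merged into 1 list per TR and stage and no result comes from a test, and leaving out a replicate could not be run for the same reason. Of 348 values under alternatives, 190 stayed within the interval of the reported value, 152 did not, and 6 changed the sign of a difference whose interval was clear of 0. The limits are the single list per TR and stage, unequal depth, and CpG content, which differs between the sets. All values tried stayed within their interval with TSSs of protein-coding transcripts, at least 200 bases of overlap, a window of fixed length, single promoters without an opposite non-coding gene, and 1 pair per gene (714 pairs), the last of which was chosen after seeing the data. The limit of 25 for FOXP1 was also chosen after seeing the data.

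The divergent minus single share with all 6 lists, 46.1 points, was 48.8 with the summit in the window, 52.2 without flanks, 42.5 without multigene families among single promoters, and 13.0, 39.1, and 9.13 in the CpG classes below 0.3, from 0.3 to 0.6, and from 0.6. For all 3 TRs at E15.5 (44.3) the values in the same order were 47.1, 51.2, 40.4, 16.7, 33.6, and 6.68, and at E18.5 (46.1) they were 48.1, 51.6, 42.5, 12.7, 38.3, and 9.23. The median over the lists (42.0) was 44.1, 48.3, 37.9, 17.6, 29.5, and 5.29, and 47.2 with peaks at −log10 p of 15 or more. The ratio of median fold enrichment (1.16) was 1.08 with that threshold and 1.56, 1.21, and 1.12 in the CpG classes.

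The median share of summits between the TSSs (34.1%) was 30% at up to 300 bp and 39.6% with crossing pairs added, and that of windows with 1 peak over both TSSs (92.8%) was 97.6% and 86.1%. Of pairs with a peak at either stage, the median share over TRs with one at 1 stage only (1.72%) was 6.05% at the stricter threshold, with 13.0% for ARID1B, and 3.18% with the summit in the window.

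Motif differences in points are given by CpG class from low to high where they moved, then within 150 bp. CCAAT (-1.63) was 2.31 and 4.50 in the upper classes and 8.55 within 150 bp. CCGGAAG (25.3) was -3.53, 13.9, and 17.0, then 18.3. GCGCATGC (4.77) was 8.76, -0.873, and 1.86 (-0.393 to 4.57). GGGCGG (31.6) was 16.2 and 0.255 in the upper classes, then 23.8, and 26.9 without multigene families. AAGATGGCG (6.77) was 4.55, 3.96, and 4.53, then 3.61. CTACAATTC (0.649) was -0.721 and -1.16 in the lower classes, and TGACGTCA (3.08) was -0.931 and -1.68 there. TATAAA (-19.8) was -29.9, -13.2, and -5.70, then -7.08, and -16.2 without multigene families. TGTTTAC (-3.72) was -0.970 in the upper class, then -1.56. ATCAAAG (-3.53) was 0.150 and 0.183 in the upper classes, then -0.403.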
